A study of Mus musculus with 6 samples.

Results

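The data describe 9 genes that encode secreted ligands of the bone morphogenetic protein (BMP), growth differentiation factor (GDF) and activin branches of the TGF-β superfamily, measured by bulk RNA-seq in mouse aorta. They are Bmp2, Bmp3, Bmp4, Bmp6, Gdf6, Gdf10, Gdf11, Inhba and Inhbb, and were found in the count table by gene symbol, as 9 of its 55487 rows. The study asked what the loss of Prdm16, a transcription factor, in smooth muscle cells does to gene expression in the aorta. It compared 3 inducible smooth muscle Prdm16 knockout mice (iSM KO) with 3 control littermates, all male. The iSM KO mice carried Myh11-CreER T2 and 2 floxed Prdm16 alleles (F/F). The control mice carried the same Cre with wild type Prdm16 (W/W). Mice of both groups were injected with 1 mg tamoxifen per day from 8 weeks of age, in 10 injections, and the aortas were taken 60 days after a tamoxifen-free period of 2 weeks. The Cre is driven by the promoter of the smooth muscle myosin gene Myh11, so the deletion is directed at smooth muscle cells and the other cells of the aorta are not targeted. The adventitia was removed before RNA was extracted, and each library came from the aorta of 1 mouse.

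BMP, GDF and activin ligands are made as precursors, cut by proprotein convertases and secreted as dimers. They bind pairs of type I and type II receptor kinases, which phosphorylate SMAD1, SMAD5 and SMAD9 for most BMPs and SMAD2 and SMAD3 for activins, and secreted antagonists such as noggin and follistatin bind the ligands before they reach a receptor. In vessels, BMPs act on both endothelial and smooth muscle cells, and BMP2 and BMP4 are known for their part in vascular calcification.

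Depth ranged from 24911609 to 40460467 counts per library, with Control 3 the shallowest, and 59.0% to 67.6% of the counts fell on protein-coding genes. Prdm16 was at 183, 223 and 179 CPM (counts scaled to the TMM-normalized library size, the unit used for levels throughout) in Control 1, 2 and 3 and at 93.8, 113 and 79.8 CPM in iSM KO 1, 2 and 3 (log2 fold change -1.03, SE 0.14, FDR 0.0026). These counts cover the whole gene, so they do not isolate the deleted exon 9. The 8 smooth muscle markers summed to between 22497 and 27516 CPM in Control and between 24268 and 26745 CPM in iSM KO, and 2 of the 8, Myocd and Des, passed the test as higher. Of other cell types, 8 endothelial markers summed to 554 to 1065 CPM in Control and 311 to 827 CPM in iSM KO, and 8 fibroblast markers to 178 to 361 CPM and 134 to 204 CPM. Adipocyte markers summed to 33.6 to 189 CPM in Control and 17.0 to 23.1 CPM in iSM KO, and of the 7 tested 5 passed the edgeR test as lower and 1, Pparg, as higher (6 and 1 under DESeq2, 1 and 1 under limma-voom). Chondrocyte markers summed to 105 to 119 CPM in Control and 43.3 to 51.9 CPM in iSM KO, and 3 of the 4 tested passed as lower. Of 5 tested cardiomyocyte markers 3 passed as higher and 0 as lower, and the 1 tested mesothelial marker passed as lower. Of 8 macrophage, 2 skeletal muscle and 4 Schwann cell markers tested, 0 passed under edgeR. These are whole tissue samples, so fewer cells of a type and less RNA per cell cannot be told apart.

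Of the 9 ligand genes, 1 passed the test as higher in iSM KO aorta (Inhbb, a subunit of activin B) and 0 passed as lower. The quasi-likelihood test of edgeR was applied to 16565 genes, with p-values adjusted by Benjamini-Hochberg (FDR) and a threshold of 0.05, and all 9 genes passed its filter on low counts. Over all tested genes, 4.26% passed as higher and 3.30% as lower. With a fold change over 2 as a further condition, 0 of the 9 passed under edgeR, DESeq2 or limma-voom, beside 2.78% of all genes under edgeR. Without Control 1, 2 passed both conditions (Bmp3 and Inhbb). At an unadjusted edgeR p under 0.05 there were 5 of the 9, with Bmp2, Gdf6 and Inhbb higher and Gdf10 and Inhba lower, beside 11.1% of all genes higher and 11.0% lower. DESeq2 called 2 of the 9, Bmp2 and Inhbb, both higher, and limma-voom called Inhbb. The log2 fold change was above 0 for 4 ligand genes and below 0 for 5, with a median of -0.04 beside -0.01 over all tested genes.

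The promoters of the activin subunit genes are shown because Inhba and Inhbb had fold changes of opposite sign and levels that lay far apart. The Inhba change did not pass the test (FDR 0.22). The letters are the 250 bases before the RefSeq start site on GRCm38.p6, 5′ to 3′ on the strand of the gene. The Inhbb window is chr1:119422249-119422498 on the minus strand, and its capitals mark a GC box (GGGCGG, here read on the other strand as CCGCCC) at positions -122 to -117 from the start. The Inhba window is chr13:16011601-16011850 on the plus strand, and its capitals mark the sequence TATAAA at positions -91 to -86.
Inhbb: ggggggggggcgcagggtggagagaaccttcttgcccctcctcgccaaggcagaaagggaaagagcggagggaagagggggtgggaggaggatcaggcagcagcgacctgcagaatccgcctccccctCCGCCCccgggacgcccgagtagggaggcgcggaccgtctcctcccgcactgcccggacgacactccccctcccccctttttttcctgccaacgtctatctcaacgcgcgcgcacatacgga
Inhba: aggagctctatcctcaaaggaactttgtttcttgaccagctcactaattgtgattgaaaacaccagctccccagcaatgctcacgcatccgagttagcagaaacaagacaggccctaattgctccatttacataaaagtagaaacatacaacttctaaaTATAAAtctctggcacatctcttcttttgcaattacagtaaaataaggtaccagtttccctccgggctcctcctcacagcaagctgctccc
The Inhbb window held 68.0% G and C and 21 CpG dinucleotides, and the Inhba window held 43.2% and 3, while the median of 32851 mouse promoter windows of this length was 52.4% and 6. On either strand, TATAAA was found in 12.4% of all windows, GGGCGG in 32.7%, the cyclic AMP response element TGACGTCA in 1.55% and the BMP response sequence GGCGCC in 9.59%. RefSeq windows were found for 6 of the 9 ligand genes, those of Bmp4, Bmp6, Gdf10, Gdf11, Inhba and Inhbb, while Bmp2, Bmp3 and Gdf6 had none in the table. The Bmp6 window lies inside the gene as GENCODE draws it, which starts at 38345107. Of the 6, 5 held GGGCGG, Gdf11 and Inhba held TATAAA, and 0 held TGACGTCA or GGCGCC. The count of GGGCGG was 8 in Gdf11 with some matches overlapping, 4 in Gdf10, and 1 each in Bmp4, Bmp6 and Inhbb. A match is a run of letters and not a binding site, and a link between these windows and the levels or fold changes was not tested.

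To compare levels between genes, CPM were divided by the exon length of each gene in kb. In Control, Inhba stood first at 16.4 ± 0.52 CPM per kb (SD, n = 3). Bmp6 followed at 11.6 ± 5.90, Bmp4 at 8.28 ± 4.10, Gdf10 at 7.88 ± 1.29 and Bmp3 at 6.34 ± 3.91 CPM per kb. The lower end held Bmp2 at 3.65 ± 0.24, Inhbb at 1.49 ± 0.46, Gdf11 at 1.42 ± 0.27 and Gdf6 at 0.17 ± 0.026 CPM per kb. The median over tested genes was 2.51 CPM per kb, so 6 ligand genes lay above it and Inhbb, Gdf11 and Gdf6 below. Neighbours in this order had overlapping values except for Bmp3 above Bmp2, Bmp2 above Inhbb and Gdf11 above Gdf6. In iSM KO, Inhba again stood first (14.6 ± 0.78 CPM per kb), Bmp3 came second (10.2 ± 1.37) and Inhbb, at 2.75 ± 0.52, lay above the median of all genes of 2.45. There Inhba stood clear of Bmp3, Bmp2 of Inhbb, Inhbb of Gdf11, and Gdf11 of Gdf6, and the other neighbours overlapped.

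**Figure D1:**
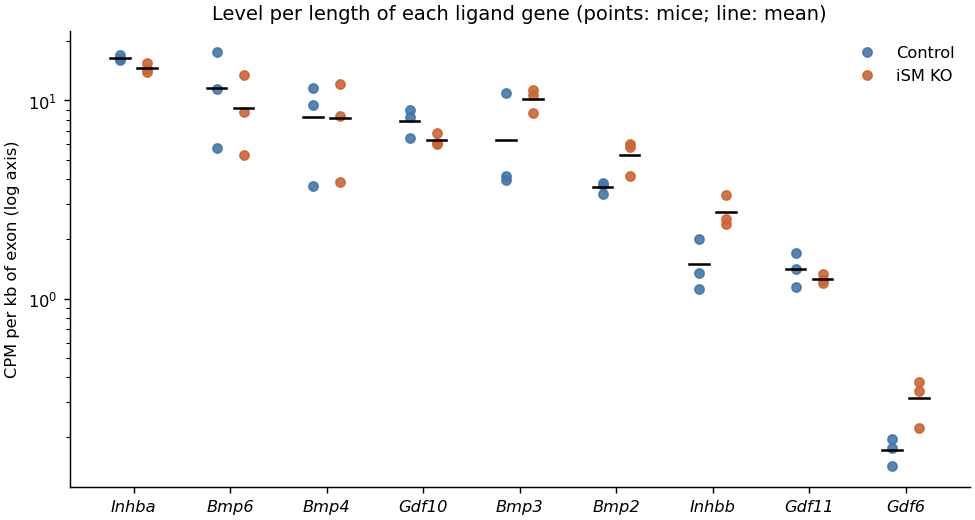
Level of each ligand gene as CPM per kb of exon on a log axis, with 1 point per mouse and a line at the mean of the 3 Control (blue) or 3 iSM KO (orange) mice. Inhba is the highest and Gdf6 the lowest gene by mean in both groups, and the points of Bmp3, Bmp4 and Bmp6 are spread widely in Control.

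Bmp2 (ENSMUSG00000027358, chr2:133552159-133562885, plus strand) encodes an osteogenic BMP. It stood at 12, 13.4 and 13.6 CPM in Control 1, 2 and 3 and at 20.7, 14.7 and 21.5 CPM in iSM KO 1, 2 and 3. All iSM KO libraries lay above all Control libraries, with iSM KO 2 the closest to them. The means were 13.0 ± 0.86 and 19.0 ± 3.68 CPM (log2 fold change 0.55, SE 0.15), and Bmp2 missed the edgeR threshold at an FDR of 0.057. It passed under DESeq2 (FDR 0.011), when only protein-coding genes were tested (0.048), without a filter on low counts (0.0083) and without iSM KO 2 (0.018). Over all alternatives that kept every library, the FDR ran from 0.0083 to 0.11.

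Bmp3 (ENSMUSG00000029335, chr5:98854415-98884396, plus strand) encodes a BMP that opposes the osteogenic members. Its Control libraries were split, with 80.3 CPM in Control 1 but 30.8 and 29.5 CPM in Control 2 and 3. The iSM KO libraries stood at 63.8, 78.8 and 83.2 CPM, so Control 1 lay inside the iSM KO range and the other controls well below it. The log2 fold change of 0.68 (SE 0.34) did not pass (FDR 0.28). Without Control 1 it was 1.32 with an FDR of 0.0018, so the call rests on that library. In log2 CPM the spread of Bmp3 within Control (SD 0.81) was at percentile 97.2 of all tested genes.

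Bmp4 (ENSMUSG00000021835, chr14:46383520-46390669, minus strand) encodes a BMP that endothelial cells are known to secrete. It stood at 21.4, 26.1 and 8.34 CPM in Control and at 8.69, 18.9 and 27.2 CPM in iSM KO. The ranges nearly coincided, with Control 3 and iSM KO 1 low and Control 2 and iSM KO 3 high. The means were 18.6 ± 9.21 and 18.3 ± 9.29 CPM (log2 fold change -0.04, SE 0.44, FDR 0.97). Leaving out 1 library moved the fold change from -0.45 to 0.29 and turned its sign in 3 of 6 fits. The spread of Bmp4 was at percentile 97.9 in Control and 98.3 in iSM KO.

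Bmp6 (ENSMUSG00000039004, chr13:38345107-38500302, plus strand) encodes a BMP that in the liver drives hepcidin expression. It stood at 44.6, 68.5 and 22.5 CPM in Control and at 20.8, 34.0 and 52.4 CPM in iSM KO. The same libraries as for Bmp4 were low and high, and the groups overlapped. The log2 fold change was -0.35 (SE 0.40, FDR 0.65), and without Control 2 it was 0.08. Txndc5, on the opposite strand, shares 224 bp of exon with Bmp6, which is 5.74% of the Bmp6 exons, and stood at 171 to 212 CPM. Whether the counting used strand is not given in the sources used here, so reads from the shared bases cannot be told apart.

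Gdf6 (ENSMUSG00000051279, chr4:9844372-9862345, plus strand) encodes a GDF known for its part in joint and skeletal patterning, and was the lowest of the 9. Its raw counts were 23, 24 and 12 in Control and 32, 42 and 49 in iSM KO. As CPM these were 0.69, 0.62 and 0.50 in Control and 0.79, 1.20 and 1.34 in iSM KO. The groups did not overlap, though Control 1 and iSM KO 1 lay close together. The log2 fold change of 0.86 (SE 0.32) was nearly that of Inhbb, but it did not pass (FDR 0.15), and at this depth each value rests on at most 49 counts.

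Gdf10 (ENSMUSG00000021943, chr14:33923587-33937983, plus strand) encodes a ligand close to BMP3 in sequence, also called BMP3B. It stood at 46.8, 33.7 and 42.8 CPM in Control and at 31.3, 31.7 and 35.5 CPM in iSM KO. Control 2 lay inside the iSM KO range and Control 1 and 3 above it. The log2 fold change of -0.32 (SE 0.12) did not pass (FDR 0.16). Without Control 2 it was -0.45 with an FDR of 0.025.

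Gdf11 (ENSMUSG00000025352, chr10:128882295-128891718, minus strand) encodes a close relative of myostatin that signals through activin receptors. It stood at 6.87, 5.72 and 4.65 CPM in Control and at 5.40, 5.01 and 4.85 CPM in iSM KO. The iSM KO values lay inside the Control range (log2 fold change -0.18, SE 0.17, FDR 0.57).

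Inhba (ENSMUSG00000041324, chr13:16011851-16031621, plus strand) encodes the βA subunit, which forms activin A as a homodimer. It stood at 109, 102 and 104 CPM in Control and at 98.6, 92.5 and 88.8 CPM in iSM KO. All iSM KO libraries lay below all Control libraries, and the spread within Control was among the smallest of all genes (percentile 5.0). The means were 105 ± 3.35 and 93.3 ± 4.96 CPM (log2 fold change -0.17, SE 0.074), and the difference did not pass (FDR 0.22). The value moved only from -0.21 to -0.14 when 1 library was left out.

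Inhbb (ENSMUSG00000037035, chr1:119415465-119422248, minus strand) encodes the βB subunit of activin B and, with the α subunit, of inhibin B. It stood at 8.54, 5.70 and 4.78 CPM in Control and at 10.1, 14.2 and 10.7 CPM in iSM KO. Every iSM KO library lay above every Control library, with Control 1 and iSM KO 1 the closest. The means were 6.34 ± 1.96 and 11.7 ± 2.23 CPM, a log2 fold change of 0.88 (SE 0.22, FDR 0.044). The call held in 1 of the 6 fits that left out a library. Without Control 1 the FDR was 0.014, and it was 0.10 without Control 2, 0.12 without Control 3, 0.072 without iSM KO 1, 0.18 without iSM KO 2 and 0.069 without iSM KO 3. The fold change stayed between 0.71 and 1.15 in these fits.

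**Figure D2:**
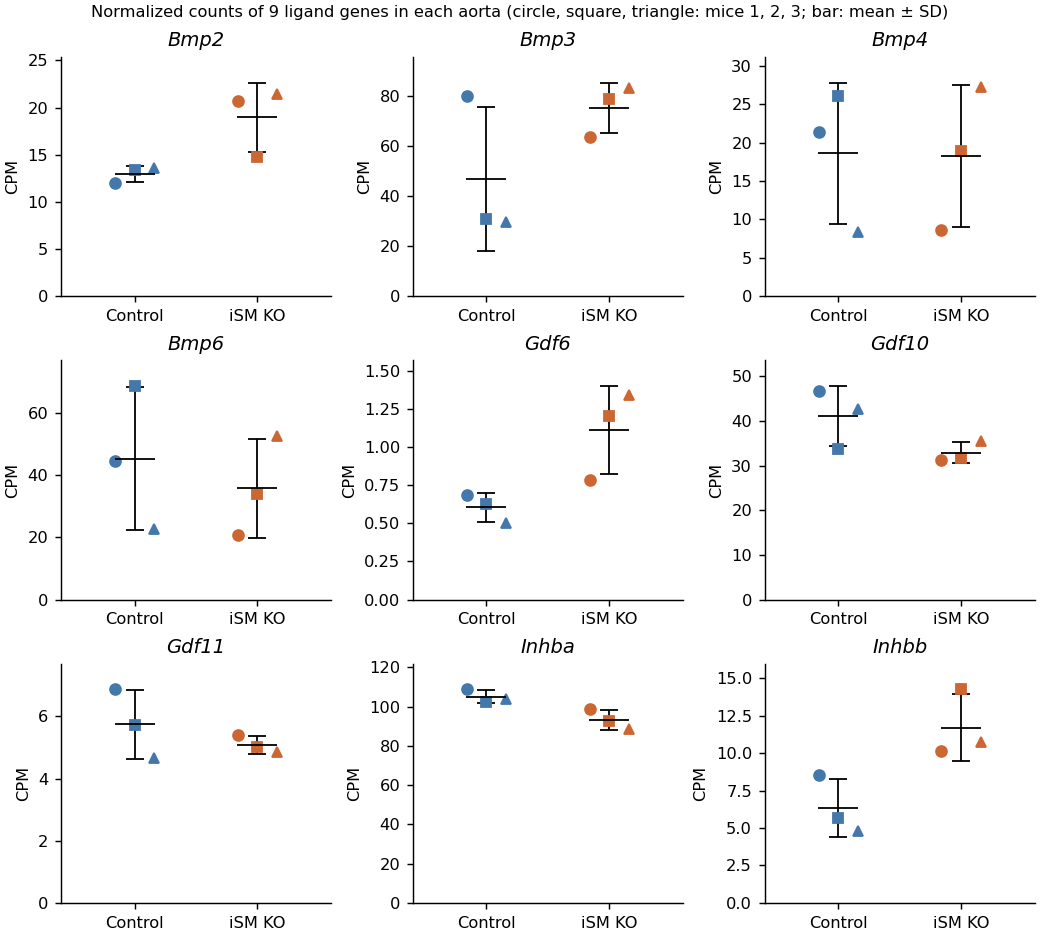
Normalized counts (CPM) of each ligand gene in each mouse, with circles, squares and triangles for replicates 1, 2 and 3 and bars for the mean ± SD of 3 mice, each panel with its own axis from 0. The groups do not overlap for Bmp2, Gdf6 and Inhbb (iSM KO above) and Inhba (iSM KO below).

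Across the 9 ligand genes, 3 had all iSM KO libraries above all Control libraries, beside 15.0% of all tested genes, and 1 had them all below, beside 13.0%. The other 5 overlapped. The ligand with the largest fold change, Inhbb, changed by 1.83 times.

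**Figure D3:**
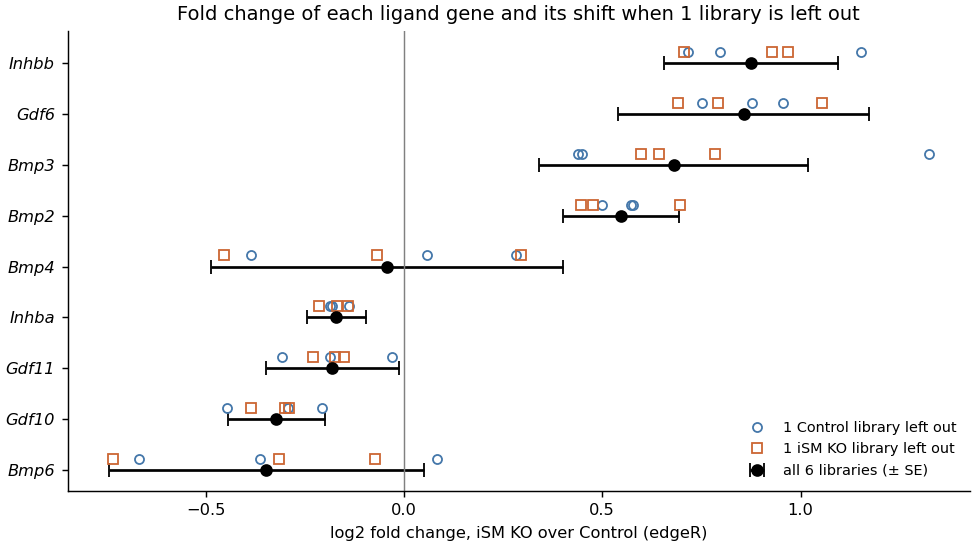
Log2 fold change (iSM KO over Control) of each ligand gene, with a black point and SE bar for all 6 libraries and open symbols for fits without 1 Control (circle) or 1 iSM KO (square) library. Bmp3 shifts to 1.32 without Control 1, and Bmp4 and Bmp6 cross 0.

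Bmp4 and Bmp6 varied together. Within both groups they put the libraries in the same order, with Control 2 above 1 above 3 and iSM KO 3 above 2 above 1. Their centred log2 CPM differed by a root mean square of 0.22 over the 6 libraries, against 0.87 for the least alike pair, Bmp3 and Bmp6. The pairs Gdf11 and Inhba (0.14) and Gdf10 and Inhba (0.17) were closer still. The library order of Bmp4 and Bmp6 was found in 6 of 8 endothelial markers and in 4.39% of all tested genes. The endothelial sum was 919, 1065 and 554 CPM in Control and 311, 510 and 827 CPM in iSM KO. All 8 endothelial markers had a log2 fold change below 0 (median -0.60), and 0 of 8 passed the edgeR, DESeq2 or limma-voom test, with 1 of 8 (Erg) at an unadjusted edgeR p under 0.05. Relative to that sum, Bmp4 stood at 2.33%, 2.45% and 1.51% in Control and at 2.79%, 3.70% and 3.30% in iSM KO, so on this scale the groups no longer overlapped. On the same scale Bmp6 was 4.85%, 6.43% and 4.06% in Control and 6.68%, 6.67% and 6.34% in iSM KO, and the groups overlapped between Control 2 and iSM KO 3. Most of the endothelial sum came from Vwf and Pecam1, at means of 345 and 273 CPM in Control. The scale thus depends mainly on these genes and need not hold for each marker alone. The scale was added after the data were seen and carries no test, and the part of endothelial RNA in the Bmp4 and Bmp6 values was not tested.

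Gdf10 followed a different order, Control 1 above 3 above 2 and iSM KO 3 above 2 above 1. This order was shared by 6 of 8 fibroblast markers, by 0 of 8 endothelial markers and by 3.88% of all tested genes. The fibroblast sum was 361, 178 and 265 CPM in Control and 134, 148 and 204 CPM in iSM KO. All 8 fibroblast markers had a log2 fold change below 0, with 7 of 8 at an unadjusted edgeR p under 0.05 and 1 of 8 (Clec3b) past the FDR threshold as lower (2 of 8 under DESeq2, 0 under limma-voom). Relative to the sum, Gdf10 was at 12.9%, 18.9% and 16.2% in Control and at 23.3%, 21.5% and 17.4% in iSM KO, which overlapped between Control 2 and iSM KO 3. The part of fibroblast RNA in the Gdf10 values was not tested.

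**Figure D4:**
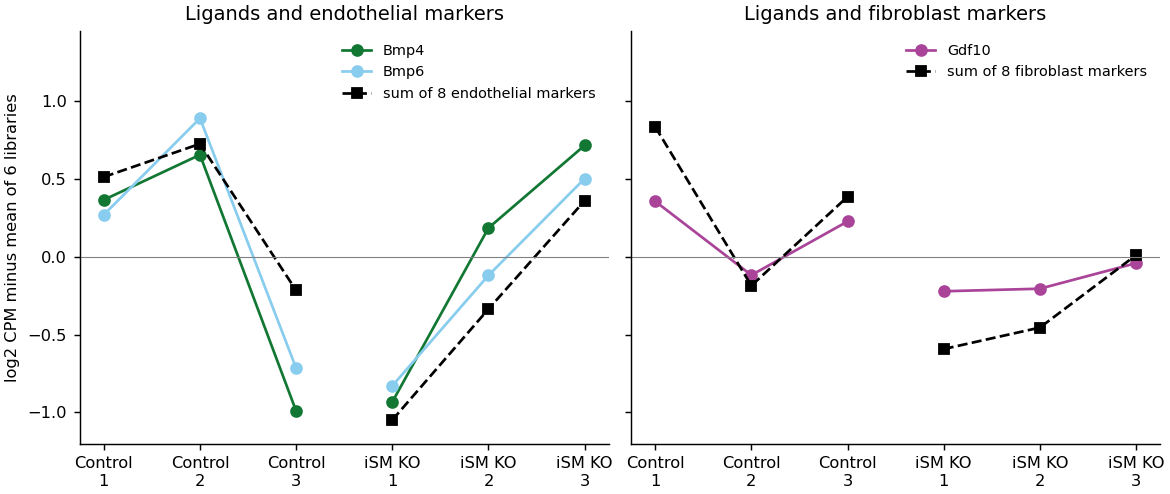
Log2 CPM of Bmp4 and Bmp6 with the sum of 8 endothelial markers (left) and of Gdf10 with the sum of 8 fibroblast markers (right), each minus its mean over the 6 libraries, by library. Solid lines are ligands and dashed black lines marker sums, and within each group a ligand and its marker sum rank the libraries alike.

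Of the pair of activin subunits Inhbb passed the test and Inhba did not. Per kb of exon, Inhba exceeded Inhbb by 8.48, 12 and 14.5 times in Control and by 6.49, 4.33 and 5.51 times in iSM KO. The groups did not overlap in this ratio, whose means were 11.6 ± 3.01 and 5.44 ± 1.09. That follows from the separation of each gene on its own and adds nothing to it. The inhibin α subunit gene Inha, whose product pairs with either β subunit, was at 1.95 ± 0.17 CPM in Control and 2.21 ± 0.13 CPM in iSM KO and did not pass (FDR 0.64). Follistatin (Fst), which binds activins, stood at 2.51, 2.29 and 1.34 CPM in Control and at 25.8, 17.8 and 19.9 CPM in iSM KO and rose (log2 fold change 3.34, SE 0.22, FDR 7.5e-05). The sum of Inhba and Inhbb over Fst, per kb, was 34.8, 34.8 and 59.5 in Control and 3.17, 4.59 and 3.78 in iSM KO. Per kb, the means in Control and iSM KO were 16.4 and 14.6 for Inhba and 1.49 and 2.75 for Inhbb. The fall of the ratio over Fst thus mainly restates the rise of Fst. These are ratios of RNA and carry no test of their own.

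The 3 genes with a profile most like that of Inhbb over the 6 libraries were 9430091E24Rik, Lca5l and Macroh2a3. Their centred log2 CPM differed from that of Inhbb by a root mean square of 0.118, 0.120 and 0.120, where the median over 16564 genes was 0.58. All of them lay under 3 CPM on average and none passed the edgeR test (FDR 0.17, 0.24 and 0.26). Among the ligands, Gdf6 had the profile nearest to Inhbb (0.26).

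The lists of other pathway genes were chosen with earlier results of these data known. Of 21 further ligand genes of the family, 6 passed the filter and 0 of these passed the edgeR test, at an FDR or an unadjusted p under 0.05, or the tests of DESeq2 and limma-voom. They were Bmp8b (0.27 and 0.50 CPM in Control and iSM KO, log2 fold change 0.85, FDR 0.25), Inha, Gdf1 (0.66 and 0.99 CPM), Gdf15 (1.42 and 1.74 CPM), Lefty1 (4.25 and 4.18 CPM) and Gdf7 (3.85 and 2.79 CPM). Gdf7 ranked the libraries as Bmp4 and Bmp6 did. The other 15 reached at most 22 counts in a library, among them 3, Bmp10, Lefty2 and Mstn, with a count of 0 in every library, which allows up to 0.074 to 0.12 CPM by library.

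Convertases cut the ligand precursors, and 1 of them rose and 1 fell. Of 5 tested processing genes, Pcsk5 rose from 54.3 ± 7.95 to 85.5 ± 6.03 CPM (log2 fold change 0.65, FDR 0.0090) and Pcsk6, also called PACE4, fell from 22.2 ± 2.20 to 11.6 ± 0.53 CPM (-0.93, FDR 0.0011). Both calls held in 6 of 6 fits without a library. Furin, the most abundant of them, was at 116 and 118 CPM and did not pass, nor did Pcsk7 (30.0 and 29.8 CPM). Bmp1, at 62.3 and 72.3 CPM, had all iSM KO libraries above all Control libraries. It did not pass either (unadjusted edgeR p 0.011, FDR 0.099). Of 14 receptors and co-receptors, 0 rose and 1 fell under edgeR, DESeq2 and limma-voom alike, with 7 of 14 at an unadjusted edgeR p under 0.05, all lower. The one called was Acvr1c, the type I receptor ALK7, at 0.90 and 0.22 CPM (log2 fold change -2.0, FDR 0.020). That call held in 1 of 6 fits without a library. Its libraries stood at 0.54, 1.20 and 0.96 CPM in Control and 0.27, 0.17 and 0.22 CPM in iSM KO. Acvr1c met the filter on low counts through Control only, the group where it was higher, so its call carries that limit.

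Of the pathway lists, the secreted antagonists had the most calls. Of 11 tested, 5 rose and 0 fell at an FDR under 0.05, with 2 more at an unadjusted p under 0.05, both lower. DESeq2 and limma-voom also called 5 higher and 0 lower. Chrdl1, a chordin-like BMP antagonist, stood at 25.8, 18.3 and 18.6 CPM in Control and 256, 267 and 189 CPM in iSM KO (log2 fold change 3.50, FDR 2.1e-05). Nbl1, also called DAN, stood at 50.5, 54.2 and 51.5 CPM in Control and 71.8, 78.7 and 81.6 CPM in iSM KO (0.57, FDR 0.0029). For both genes all iSM KO libraries lay above all Control libraries. With Fst they have the 3 smallest p-values of the 11, and all 3 calls held in 6 of 6 fits without a library. The other calls were Fstl3 and Grem1.

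Of 8 SMAD genes, 1 rose and 0 fell, with the same counts under DESeq2 and limma-voom. Smad1, a transducer of BMP signals, went from 25.9 ± 1.80 to 35.9 ± 3.50 CPM (log2 fold change 0.47, FDR 0.022), a call that held in 3 of 6 fits without a library. Smad9 was at 35.4 and 30.4 CPM with an unadjusted edgeR p of 0.038. Of 12 genes known as BMP targets, 0 rose and 2 fell (1 and 3 under DESeq2, 0 and 2 under limma-voom), both of the Id family of inhibitors of basic helix-loop-helix factors. Id4 fell from 50.6 ± 7.58 to 29.4 ± 2.75 CPM (-0.78, FDR 0.0056) and Id1 from 84.1 ± 26.4 to 41.1 ± 11.4 CPM (-1.03, FDR 0.040). The Id4 call held in 6 of 6 fits without a library and the Id1 call in 2. At an unadjusted edgeR p under 0.05 there were 4 of 12 lower, with Id3 (-0.52, FDR 0.070) and Msx1 (-0.37, FDR 0.13) beside Id4 and Id1, and 1 higher, the decoy receptor Bambi (0.53, FDR 0.065).

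**Figure D5:**
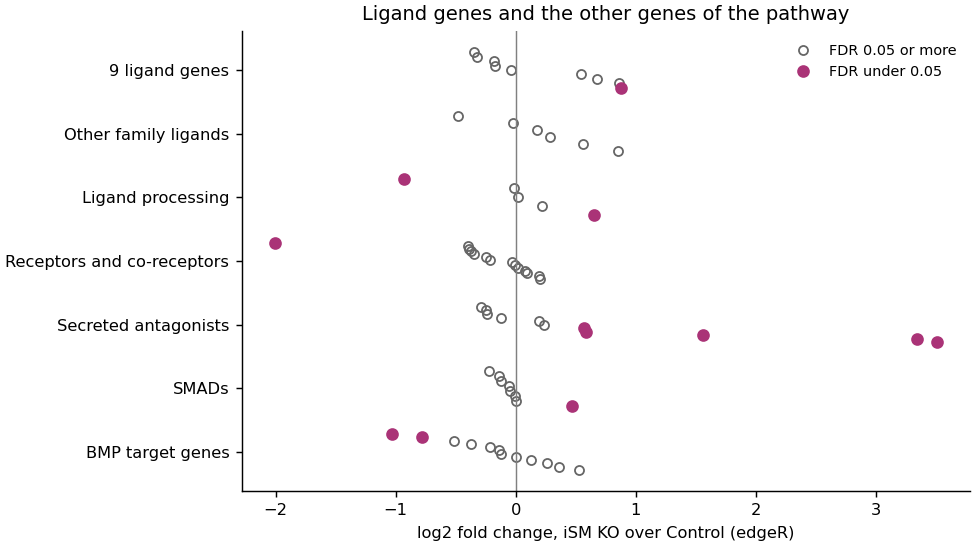
Log2 fold change (iSM KO over Control) of each tested gene in the 9 ligand genes and in 6 lists of pathway genes, with 1 point per gene and filled points for an FDR under 0.05 (edgeR). The ligand genes hold 1 filled point (Inhbb) between -0.35 and 0.88, and the antagonists hold 5, all above 0 and up to 3.50.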

How the data were processed

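RNA was extracted from the aortas with TRIzol, and libraries were made after depletion of ribosomal RNA. Per the submitters' processing notes, bcl2fastq and DRAGEN were used with mm10, and the study's methods name an Ensembl mouse reference and the DRAGEN platform. Versions of these tools are not given in the sources used here. The values the authors deposited are estimated counts per gene and library, not normalized, and 10.9% to 12.2% of all values in a library were not whole. They were rounded to whole numbers here.

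A gene was tested if every sample of either group exceeded a count of 10 (16565 of 55487), the filter the study's methods describe. The test used edgeR 4.0.16 under R 4.3.3 (TMM, glmQLFit and glmQLFTest, 6 libraries, no covariate) with Benjamini-Hochberg adjustment (FDR). DESeq2 1.42.0, limma 3.58.1 (voom), other scalings, filters and gene sets, a replicate block and fits without each library in turn were alternatives. The fits were tested on simulated data with a log2 fold change of 1.5 in 191 of 16077 genes. Of these 191, edgeR recovered 91.6%, and DESeq2 and limma-voom 90.6% each. Of the calls at an FDR under 0.05, 12.1% under edgeR, 18.4% under DESeq2 and 11.3% under limma-voom were genes not changed. CPM use TMM library sizes, exon lengths and positions come from GENCODE M21 on GRCm38, and promoter windows from RefSeq (GRCm38.p6). Depth limits low genes, and the floors (3 counts) cover counting error only. The SE were computed from the log2 fold change and the F statistic of the edgeR test, so they restate that test. The SD come from the 3 mice of a group. Both include the spread between mice.

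Named genes are all 9 ligand genes, the other family ligands past the filter, up to 3 genes with the smallest p per pathway list among those under the FDR threshold, Prdm16, and the 3 genes most like the ligand with the smallest p. Fstl3, Grem1, Furin, Pcsk7, Smad9, Id3, Msx1, Bambi, Pparg, Myocd, Des, Clec3b, Erg, Vwf, Pecam1 and Txndc5 were named after their values were seen. So were Bmp1, Ryr2, Actn2, Mybpc3, Myh6 and Tnni3. The ligand genes and gene lists were chosen with earlier results of these data known, and 1 gene of the antagonist list is not reported here. The study gives 3 mice per group. Each edgeR p-value tests a group difference against the spread between these libraries, with the spread moderated over all tested genes.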

Additional observations from a re-analysis of the deposited data

How the results depend on the processing

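The number of the 9 ligand genes called was 1 and became 2 under DESeq2, with protein-coding genes only and with no filter on low counts, where Bmp2 joined at a log2 fold change of 0.55, 0.56 and 0.55, and 0 with a replicate block. Over the fits without 1 library it ran from 0 (without Control 3, iSM KO 1 or iSM KO 3) to 2 (without Control 1, Bmp3 and Inhbb), was 1 without Control 2 (Gdf10) and without iSM KO 2 (Bmp2), and with the fold condition ran from 0 to 2. Over all genes 1252 were called, with 1711 under DESeq2, 1238 with protein-coding genes only and 1777 with no filter on low counts. Without 1 library that number ran from 516 (without iSM KO 2) to 1402, with 624 without iSM KO 1. Calls over the 5 pathway lists went from 11 to between 7 (without iSM KO 2) and 12. Without 1 library, log2 fold changes ran from 0.45 to 0.70 for Bmp2, 0.44 to 1.32 for Bmp3, -0.45 to 0.29 for Bmp4, -0.73 to 0.084 for Bmp6, 0.69 to 1.06 for Gdf6, -0.45 to -0.21 for Gdf10, -0.31 to -0.03 for Gdf11, -0.21 to -0.14 for Inhba, 0.71 to 1.15 for Inhbb and -1.17 to -0.92 for Prdm16. Lefty1, not called, ran from -0.22 to 0.12. No ligand changed sign under the 7 alternatives that kept all libraries.

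The replicate numbers did not pair the samples. Deviations of same-numbered libraries correlated at -0.13, -0.046 and -0.11, and no control correlated best with its own number. With the number as a replicate block, 775 genes were called, and Inhbb had a log2 fold change of 0.90 and an FDR of 0.076. The block also ended the calls of Acvr1c (FDR 0.066) and Id1 (0.10). The cause of these shifts was not tested. Depth limits Gdf6 most among the 9 ligand genes, with 12 to 49 counts per library.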
